A study of Mus musculus with 6 samples.

Results

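The genes described here are the amino acid transporter genes of mouse gastrocnemius muscle, read by RNA-seq in 3 mice that lacked the transcription factor IRF4 in muscle and in 3 that overexpressed it. Members were all symbols of the solute carrier families Slc1a, Slc3a, Slc6a, Slc7a, Slc36a, Slc38a and Slc43a plus Slc25a44, without the creatine carrier Slc6a8. The rule named 64 symbols of the 24054 genes in the count table, and the 37 with a sum of at least 30 counts over the 6 libraries were kept. Just inside that minimum, Slc36a4 and Slc38a1 were kept with 31 counts each. Of the 27 symbols left out, 9 had no count in any library, among them Slc38a5, Slc3a1, Slc6a14 and Slc7a9. Of the 37 genes, 34 passed the filter for testing, and Slc6a2, Slc36a4 and Slc38a1 did not. Slc7a6os and Slc36a1os are named for the strand opposite a carrier gene. The libraries mark strand, but the strand setting of the counting was not stated, so their reads and those of Slc7a6 and Slc36a1 may not have been told apart.

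Both groups were male C57BL/6 mice per the labels, and their age was not given. MI4KO mice were Irf4 flox/flox;Cre+, and MI4OE mice carried the same Myl1-Cre driver with a Rosa26-LSL-Irf4 allele. The Cre is selective for skeletal muscle, so cells of fat, vessels and nerve in the tissue were not its targets. The labels give a high fat diet for each library while the study describes mice on chow, so the diet behind these values is in doubt. Gastrocnemius of wild-type or flox mice was not analysed here, and each difference is between the knockout and the overexpressor. Each library title carries its own number, and nothing in the labels says more about how the libraries of a group were obtained. A p-value here weighs the difference of the groups against the spread between these libraries.

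Amino acids cross membranes through carriers that differ in substrate and in what drives them. The SLC38 proteins take up glutamine and alanine with sodium, and the SLC1 family moves glutamate or exchanges small neutral amino acids. Of the SLC36 family, PAT1 (Slc36a1) and PAT2 (Slc36a2) use a proton gradient. Branched-chain amino acids (BCAA: leucine, isoleucine and valine) enter mostly through LAT1 (Slc7a5) and LAT2 (Slc7a8), which need the CD98 heavy chain (Slc3a2) to reach the membrane. LAT3 (Slc43a1) and LAT4 (Slc43a2) carry them without that partner, and SLC25A44 brings them into mitochondria. Skeletal muscle burns BCAA and releases much of the glutamine and alanine found in blood.

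Total expected counts ran from 18828605 to 29239585 per library, and 3 counts corresponded to 0.101 to 0.148 CPM (counts scaled to library size). Irf4, the targeted gene, read 0.246, 0 and 0.0672 CPM over MI4KO replicates 1, 2 and 3 and 141, 369 and 261 CPM in MI4OE. The log2 difference was 11.24 (standard error 0.78), and the quasi-likelihood test of edgeR gave an adjusted p of 0.0055. Without MI4KO replicate 1 it was 12.61 with an adjusted p of 0.0587. Genes of fast muscle fibres summed to between 193898 and 348127 CPM, so that muscle RNA dominated, as labelled. Slow-fibre genes summed to 6909 CPM in MI4OE replicate 1, to 636 CPM in MI4OE replicate 3 and to between 37.5 and 132 CPM in the other libraries. MI4OE replicate 1 therefore stood apart. It held the highest CPM of 10 and the lowest of 13 of the 34 transporter genes tested.

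Promoter sequences are shown for the first 4 genes, in the order of their p, that passed the study's criterion and had an entry in the RefSeq table. They let a reader see what kind of promoter these carriers have. The criterion was a change of 1.5-fold and an unadjusted p under 0.05. Slc1a5 and Slc36a2 are named only. Each sequence runs from 250 bases before to 50 bases after the RefSeq start on GRCm38.p6. Their positions are chr15:8710758-8711057 on the minus strand for Slc1a3 and, on the plus strand, chr7:35186135-35186434 for Slc7a10, chr6:121300038-121300337 for Slc6a13 and chr11:75531444-75531743 for Slc43a2. The table lists 3 starts for Slc6a13 and 2 for Slc43a2, of which the first is shown. Capitals mark a match to TGACGT, the core letters of a cyclic AMP response element.
Slc1a3: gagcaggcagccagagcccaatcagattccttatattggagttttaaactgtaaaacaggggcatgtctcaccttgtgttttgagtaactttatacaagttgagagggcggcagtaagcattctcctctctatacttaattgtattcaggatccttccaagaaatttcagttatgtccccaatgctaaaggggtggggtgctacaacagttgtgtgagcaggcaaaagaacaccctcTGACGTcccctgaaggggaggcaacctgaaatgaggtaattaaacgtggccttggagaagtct
Slc7a10: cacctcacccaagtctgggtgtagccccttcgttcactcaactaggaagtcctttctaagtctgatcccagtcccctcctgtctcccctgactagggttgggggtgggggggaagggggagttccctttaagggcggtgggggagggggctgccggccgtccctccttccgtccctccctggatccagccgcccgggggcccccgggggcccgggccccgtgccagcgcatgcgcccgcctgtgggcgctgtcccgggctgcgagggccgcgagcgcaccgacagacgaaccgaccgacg
Slc6a13: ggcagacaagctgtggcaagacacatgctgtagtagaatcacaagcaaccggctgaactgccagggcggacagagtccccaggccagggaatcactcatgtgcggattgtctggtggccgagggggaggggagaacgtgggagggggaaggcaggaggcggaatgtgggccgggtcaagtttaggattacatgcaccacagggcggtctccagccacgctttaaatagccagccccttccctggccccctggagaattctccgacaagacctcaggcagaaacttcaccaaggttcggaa
Slc43a2: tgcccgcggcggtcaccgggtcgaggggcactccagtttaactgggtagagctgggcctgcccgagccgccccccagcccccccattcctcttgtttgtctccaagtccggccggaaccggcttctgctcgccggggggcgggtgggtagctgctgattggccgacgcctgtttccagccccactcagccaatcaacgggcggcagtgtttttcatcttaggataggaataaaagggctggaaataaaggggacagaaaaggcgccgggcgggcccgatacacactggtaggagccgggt

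The promoters differed in base composition. G and C made up 70.67% of the Slc7a10 promoter, 63.67% of that of Slc43a2, 59% of that of Slc6a13 and 45.33% of that of Slc1a3. The core of the interferon-stimulated response element that IRF proteins bind, GAAA and GAAA parted by any 2 bases, was searched on both strands, as were the other motifs. It occurred in 3.44% of the 32851 promoters in the table and in 0 of the 39 promoters listed for 25 of the transporter genes. TGATGNAAN, an amino acid response element read by ATF4, occurred in 3.95% of all promoters and in 3 promoters of the transporter genes, those of Slc1a4 and Slc7a7. TGACGT occurred in 7.51% of all promoters and in 6 of the 39, those of Slc1a3, Slc1a4, Slc38a6, Slc7a6 and Slc7a6os. The windows of Slc7a6 overlap and share the same TGACGT, and those of Slc7a7 share the same TGATGCAAC. These counts of promoters are therefore not counts of separate sites. The 3 motifs are spelled differently, and a match says only that the letters stand in the window.

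Levels were compared between genes per length, as TPM, transcript abundance corrected for length. Slc38a4, a sodium-coupled carrier of neutral and cationic amino acids, had the highest mean over the 6 libraries at 35.7 TPM. Slc38a2, the glutamine and alanine carrier SNAT2, followed at 31.3 TPM and Slc6a6, the taurine carrier, at 21.9 TPM. Slc3a2 was at 20.9 TPM, Slc38a3 at 18.8 TPM, Slc25a44 at 14.7 TPM, Slc38a10 at 14.0 TPM and Slc1a5 at 13.8 TPM. The order was not firm: Slc38a4 ranged over libraries from 12.6 to 51.6 TPM, Slc38a3 from 9.96 to 31.2 TPM and Slc1a5 from 5.73 to 40.2 TPM. The 37 genes summed to between 189 and 301 TPM per library, and the 3 highest held between 33.8% and 46.7% of that sum. The low end held Slc38a1 with 0.0467 TPM and Slc6a2, a noradrenaline carrier, with 0.105 TPM.

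Most of the transporter genes did not differ between the groups at the study's criterion, and those that did were mostly lower in MI4OE. Of the 34 tested, 7 met it (20.6%), 1 higher and 6 lower, while 6.64% of the 12660 genes tested met it, 4.36% higher and 2.28% lower. The median log2 difference of the 34 genes was 0.0069, and that of all genes was -4.3e-05. Differences were positive for 18 genes and negative for 16. No transporter gene had an adjusted p under 0.05, where 0.0237% of all genes did, and the lowest was 0.495 in the quasi-likelihood test of edgeR. An unadjusted p under 0.05 was reached by 7 of the 34, against 7.58% of all genes. The libraries of the groups did not overlap for 6 of the 34 genes (17.6%), 1 higher and 5 lower in MI4OE, where 12.9% of all genes did not, 7.38% higher and 5.48% lower. An exact permutation test of a single gene, with 3 libraries on each side, can reach no p lower than 0.1.

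**Figure D1:**
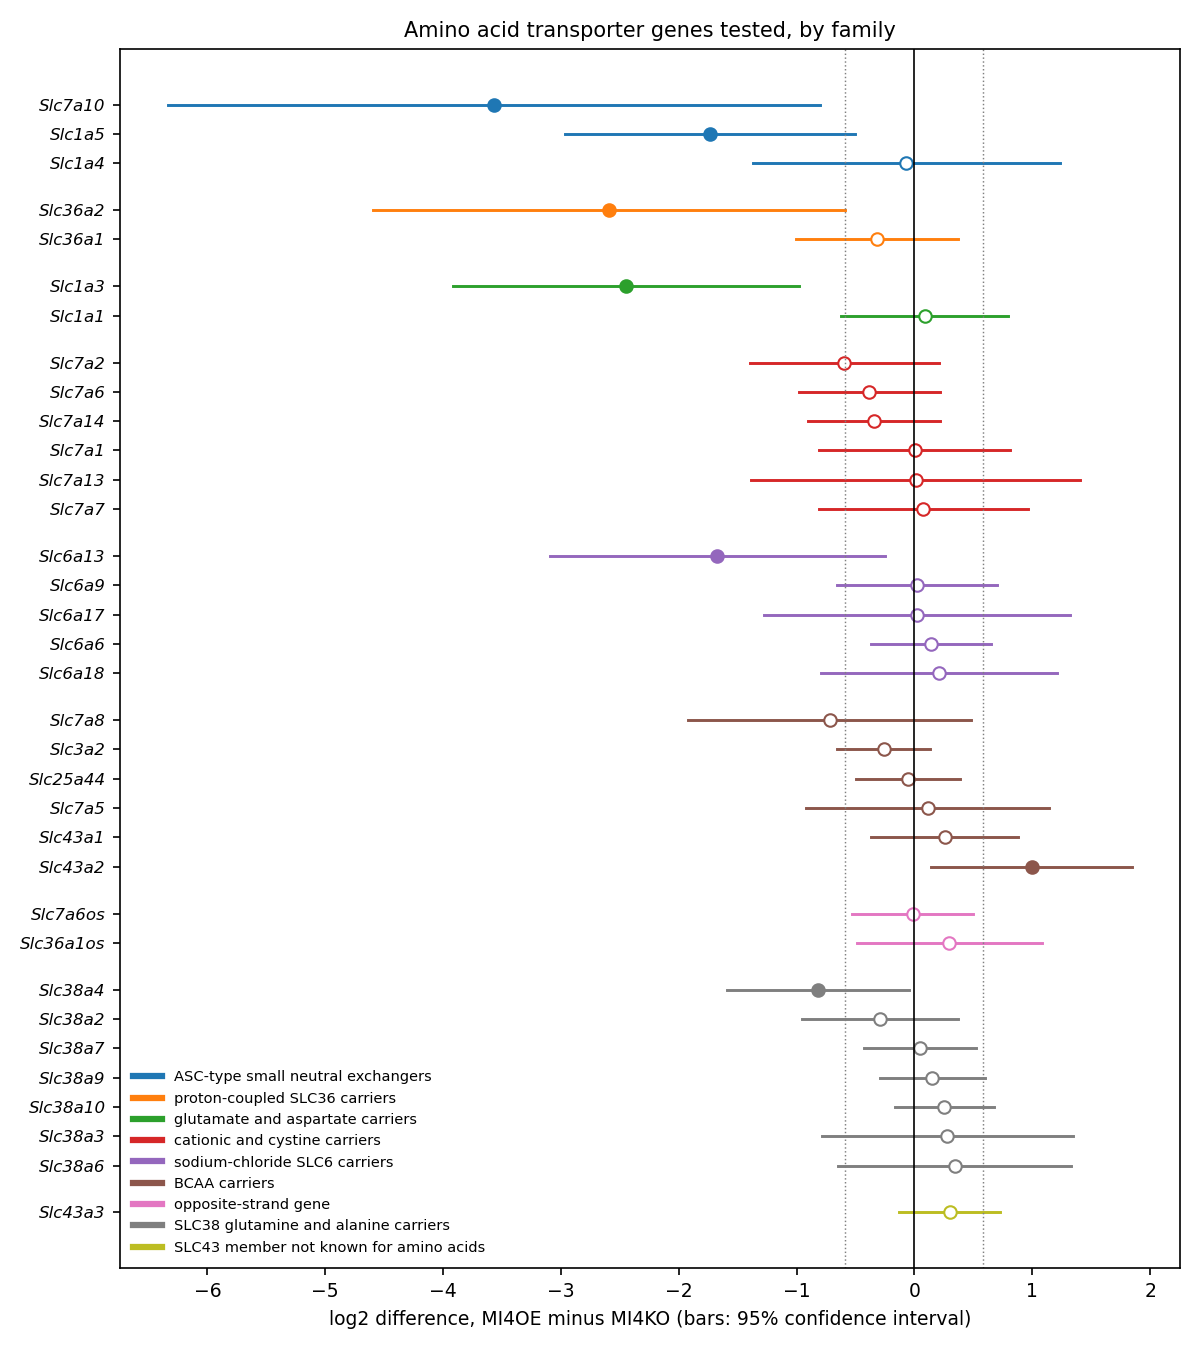
Log2 difference of each transporter gene tested (x axis, MI4OE minus MI4KO) with its 95% confidence interval, sorted by family (y axis and colours). Filled points meet the criterion of 1.5-fold (dotted lines) and an unadjusted p under 0.05, and 6 of these 7 lie left of 0.

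The carriers that exchange small neutral amino acids included the most negative log2 difference, that of Slc7a10. Of the 3, 2 were lower in MI4OE at the criterion, where 2.28% of all genes were. Slc1a5 encodes ASCT2, which exchanges glutamine, serine and alanine. Its values were 14.0, 23.8 and 68.0 CPM over MI4KO replicates 1, 2 and 3 and 10.3, 11.0 and 10.4 CPM in MI4OE replicates 1, 2 and 3. All MI4OE libraries lay below all MI4KO libraries, and the MI4KO values spread widely while the MI4OE values were nearly equal, with 35.3 ± 28.8 CPM (SD, n = 3) against 10.6 ± 0.400 CPM (SD, n = 3). The log2 difference was -1.74 with a standard error of 0.53, an unadjusted p of 0.0119 and an adjusted p of 0.524 in that fit. Without MI4KO replicate 3 it was -0.85, and the gene still met the criterion.

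Slc7a10 encodes the Asc-type carrier of alanine, serine and glycine, known as a surface protein of white adipocytes and of astrocytes. Its level was 1.11, 1.15 and 7.09 CPM in the MI4KO libraries and 0.0492, 0.664 and 0 CPM in MI4OE, which is 26.98, 28.58 and 210.68 expected counts against 1.09, 18.67 and 0. No MI4OE library reached the lowest MI4KO library, and the single value of 7.09 CPM lay far above the other two of its group. Slc7a10 thus differed by -3.57 on the log2 scale, with a standard error of 1.19, an unadjusted p of 0.018 and an adjusted p of 0.546. It rests on few counts in MI4OE. It was -2.13 without MI4KO replicate 3, where the criterion was no longer met, and -6.79 without MI4OE replicate 2. Slc1a4, the other member of this group, encodes ASCT1 and stayed under 0.68 CPM in each library, with a log2 difference of -0.07 (95% confidence interval -1.37 to 1.23).

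Of the glutamate and aspartate carriers, Slc1a3 was lower in MI4OE and Slc1a1 was not. Slc1a3 encodes the glutamate carrier GLAST, best known from glia. Its level was 1.02, 2.61 and 4.84 CPM in the MI4KO libraries and 0.246, 0.699 and 0.574 CPM in MI4OE. The lowest MI4KO library lay above the highest MI4OE library. Slc1a3 thus differed by -2.45 on the log2 scale, with a standard error of 0.63, an unadjusted p of 0.00522 and an adjusted p of 0.495, the lowest p among the transporter genes. DESeq2 and the exact test of edgeR gave it adjusted p-values of 0.0200 and 0.0350, and the other 12 alternatives gave none under 0.05. Slc1a1, the neuronal and epithelial glutamate carrier, ran from 2.02 to 3.61 CPM with a log2 difference of 0.09 (95% confidence interval -0.62 to 0.79).

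Of the 2 proton-coupled carriers tested, Slc36a2 met the criterion, where 6.64% of all genes did. Slc36a2 encodes PAT2, a carrier of glycine, alanine and proline known from brown fat and kidney. Its values were 1.19, 8.60 and 4.10 CPM in the MI4KO libraries and 0.295, 1.61 and 0.309 CPM in MI4OE. The groups overlapped, because MI4OE replicate 2 lay above MI4KO replicate 1. Slc36a2 thus differed by -2.59 on the log2 scale, with a standard error of 0.86, an unadjusted p of 0.0179 and an adjusted p of 0.546. Without MI4KO replicate 2 it was -1.80 and without MI4OE replicate 3 -2.24, and neither met the criterion. It was -3.92 without MI4OE replicate 2. Slc36a1, the lysosomal carrier PAT1, differed by -0.32 on the log2 scale (95% confidence interval -1.01 to 0.37).

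Among the sodium- and chloride-coupled SLC6 carriers, Slc6a13 alone met the criterion. It encodes GAT2, a carrier of GABA and taurine, and was at 0.778, 1.07 and 2.15 CPM in the MI4KO libraries and at 0.590, 0.524 and 0.132 CPM in MI4OE. The groups did not overlap, but the lowest library rested on 3 counts. Slc6a13 thus differed by -1.67 on the log2 scale, with a standard error of 0.61, an unadjusted p of 0.0266 and an adjusted p of 0.577. It did not meet the criterion without MI4KO replicate 3, where it was -1.16, or without MI4OE replicate 3. Slc6a6, at a far higher level, read 59.0, 99.2 and 76.4 CPM in MI4KO against 80.8, 96.8 and 80.9 CPM in MI4OE, and its log2 difference was 0.14 (95% confidence interval -0.37 to 0.65). The sign of that value turned to -0.03 without MI4KO replicate 1.

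**Figure D2:**
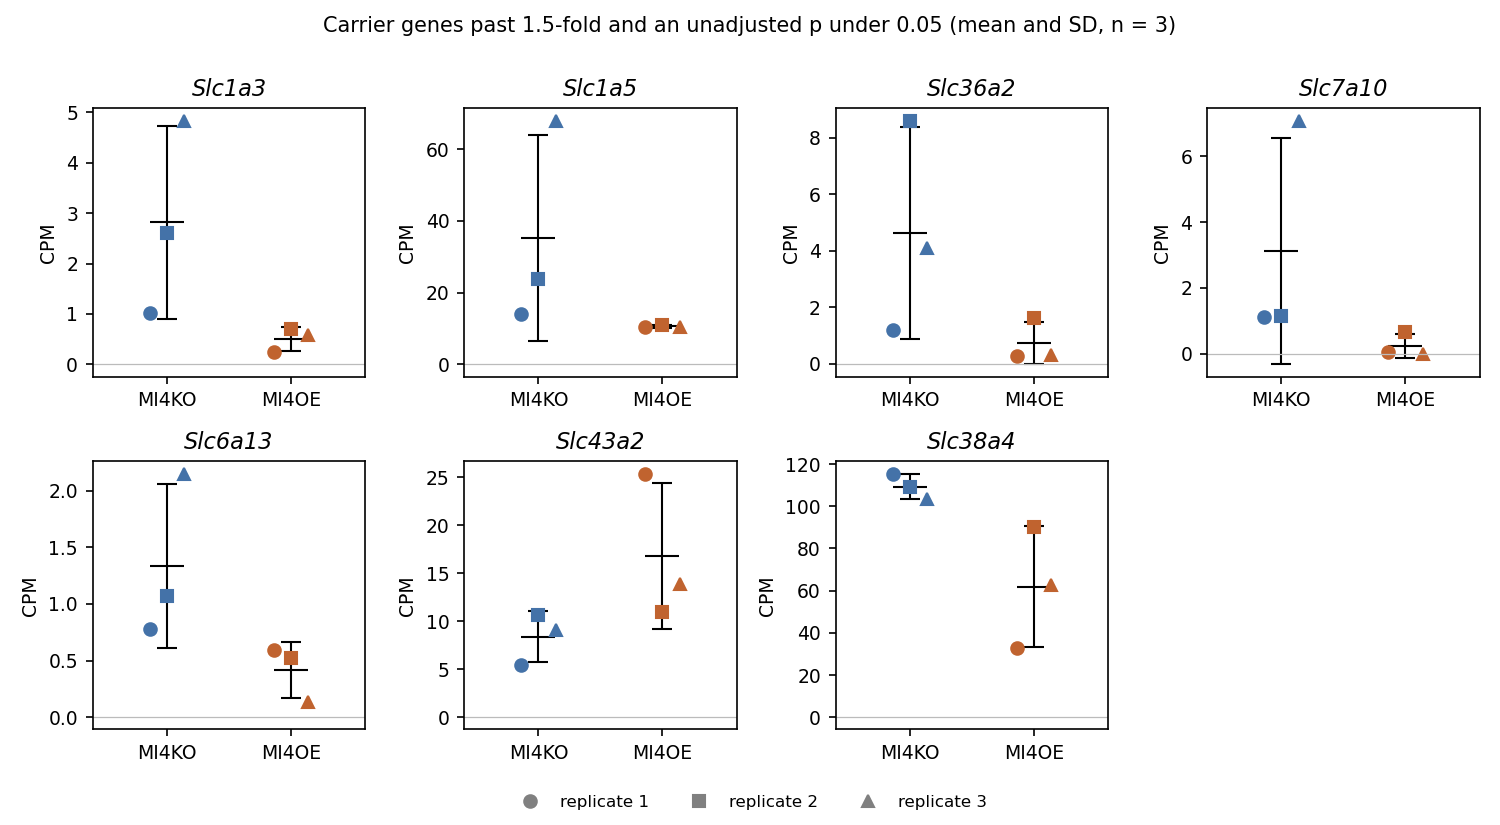
CPM in each library of the 7 transporter genes that met the criterion, in the order of their p, with group mean and SD (n = 3) in black. MI4KO replicate 3 is the highest library of Slc1a3, Slc1a5, Slc7a10 and Slc6a13, and MI4KO replicate 2 of Slc36a2, while Slc43a2 and Slc38a4 have MI4OE replicate 1 at their extremes.

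The SLC38 carriers held the most abundant transporter genes, and 1 of 7 tested met the criterion, where 6.64% of all genes did. Slc38a4 was at 116, 109 and 103 CPM in the MI4KO libraries and at 32.9, 90.1 and 62.8 CPM in MI4OE. All MI4OE libraries were below all MI4KO libraries, and MI4OE replicate 1 was far the lowest. Slc38a4 thus differed by -0.82 on the log2 scale, with a standard error of 0.33, an unadjusted p of 0.0405 and an adjusted p of 0.626. The gene met the criterion in 7 of 14 alternative fits, and it lost the criterion in 5 of the 6 fits without 1 library and in both limma fits. The difference was -0.52 without MI4OE replicate 1 and -1.19 without MI4OE replicate 2, the only library whose removal kept it at the criterion.

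The other glutamine and alanine carriers showed overlapping groups. Slc38a2 was at 134, 97.3 and 65.1 CPM in the MI4KO libraries and at 68.9, 99.1 and 74.1 CPM in MI4OE, with a log2 difference of -0.29 (95% confidence interval -0.95 to 0.37). Leaving out MI4KO replicate 1 gave -0.02, and leaving out MI4KO replicate 3 gave -0.53. Slc38a3, the glutamine carrier SNAT3, was at 18.2, 22.0 and 36.1 CPM in the MI4KO libraries and at 49.8, 13.6 and 29.3 CPM in MI4OE, with the highest and the lowest library both in MI4OE. Its log2 difference of 0.28 turned to -0.25 without MI4OE replicate 1. Slc38a10 was at 31.8, 36.8 and 38.3 CPM in the MI4KO libraries and at 52.0, 37.6 and 37.8 CPM in MI4OE. Its log2 difference was 0.25 (95% confidence interval -0.17 to 0.68). Slc38a6, a weakly expressed member, read 0.655, 1.11 and 1.31 CPM in MI4KO against 1.77, 0.804 and 1.37 CPM in MI4OE. It differed by 0.34 on the log2 scale (95% confidence interval -0.65 to 1.33), and Slc38a9, the lysosomal arginine sensor of mTORC1, by 0.15 (95% confidence interval -0.29 to 0.60).

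The title of the series names BCAA, and their carriers were set apart. Of the 6 carriers, 1 met the criterion, where 6.64% of all genes did. Of the log2 differences 3 were positive and 3 negative, with a median of 0.03. The most abundant, Slc3a2, was at 21.6, 24.3 and 20.7 TPM in MI4KO and at 15.3, 22.8 and 20.7 TPM in MI4OE. The groups overlapped, and the log2 difference in CPM was -0.26 with a standard error of 0.17 and a 95% confidence interval from -0.66 to 0.13.

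Slc7a5, the LAT1 subunit that pairs with Slc3a2, was a rare transcript at 1.65, 0.910 and 1.08 TPM in MI4KO and 0.740, 1.54 and 2.08 TPM in MI4OE. Its TPM was 0.0374 to 0.101 times that of Slc3a2 in the same library. The log2 difference of 0.11 (95% confidence interval -0.92 to 1.14) turned negative without MI4KO replicate 2, without MI4KO replicate 3 and without MI4OE replicate 3. Slc7a8, the LAT2 subunit, was 3.80 to 9.37 times as abundant as Slc7a5 in each library. It was at 15.5, 8.25 and 6.10 TPM in MI4KO and at 2.81, 9.33 and 8.27 TPM in MI4OE, so that the highest and the lowest library made most of its spread. The log2 difference was -0.72 (95% confidence interval -1.92 to 0.48), and without MI4KO replicate 1 it was -0.05.

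The log2 differences of the 3 SLC43 genes were all positive, and whether they differ from each other was not tested. Slc43a2, LAT4, was at 5.49, 10.6 and 9.07 CPM in the MI4KO libraries and at 25.4, 11.0 and 13.9 CPM in MI4OE. The groups did not overlap, though MI4KO replicate 2 and MI4OE replicate 2 were close at 10.6 and 11.0 CPM. The log2 difference was 0.99 with a standard error of 0.36, an unadjusted p of 0.0274 and an adjusted p of 0.578. Without MI4OE replicate 1 it was 0.57, and it did not meet the criterion then, nor without MI4KO replicate 1 or without MI4KO replicate 3. On the TPM scale the groups overlapped, at 1.05, 2.77 and 2.08 TPM in MI4KO and 5.48, 2.71 and 3.39 TPM in MI4OE.

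Slc43a1, LAT3, was at 10.4, 13.3 and 12.1 CPM in the MI4KO libraries and at 8.90, 18.3 and 15.5 CPM in MI4OE, with a log2 difference of 0.26 (95% confidence interval -0.37 to 0.88). Slc43a3, which is known for carrying nucleobases, was at 11.5, 17.1 and 13.1 CPM in the MI4KO libraries and at 17.1, 16.7 and 17.4 CPM in MI4OE, with a log2 difference of 0.30 (95% confidence interval -0.13 to 0.72). Slc25a44, the mitochondrial BCAA carrier, was at 30.4, 36.5 and 28.7 CPM in the MI4KO libraries and at 24.6, 36.6 and 30.8 CPM in MI4OE. Its log2 difference of -0.06 (95% confidence interval -0.50 to 0.39) took the other sign under total-count scaling and in the fits without MI4KO replicate 2 or MI4OE replicate 1. Summed over the 6 BCAA carriers, the level was 57.1, 65.5 and 51.1 TPM in MI4KO and 40.4, 67.7 and 60.2 TPM in MI4OE. The lowest sum was that of MI4OE replicate 1, and the other 5 libraries overlapped.

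**Figure D3:**
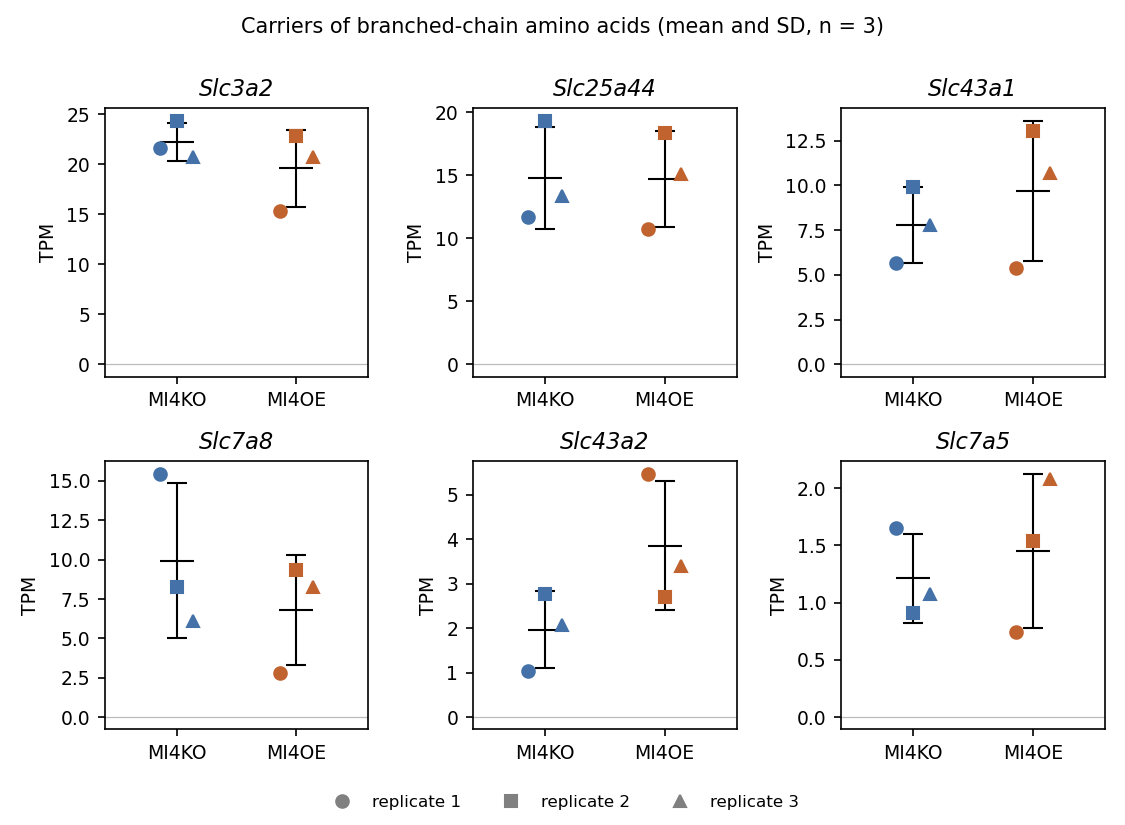
TPM (y axis, a separate scale for each gene) of the 6 carriers of BCAA in each library by group, with group mean and SD (n = 3) in black. The groups overlap in all 6 panels, and MI4OE replicate 1 is lowest for 5 carriers and highest for Slc43a2.

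The cationic and cystine carriers included no gene past the criterion among 6 tested, where 6.64% of all genes met it. Slc7a2, the arginine and lysine carrier CAT2 and the most abundant of them, was chosen here after its values were seen. It was at 44.9, 43.3 and 31.9 CPM in the MI4KO libraries and at 13.3, 35.0 and 31.1 CPM in MI4OE, with a log2 difference of -0.60 (95% confidence interval -1.40 to 0.21). The lowest library was again MI4OE replicate 1. The deposited transcript estimates put between 74.1% and 100% of Slc7a2 in each library on NM_007514, one of 2 transcripts of almost equal length. For Slc3a2 they put between 55.4% and 88.1% on NM_008577. The split of Slc43a2 over its 3 transcripts moved from 0% to 94.8% for NM_173388, with no order by group, so only the sum over its transcripts is used. The cystine carrier Slc7a11 had 4.73 counts in all and was not kept. Slc36a1os, one of the opposite-strand genes, read 1.72, 1.15 and 1.28 CPM in MI4KO against 2.26, 1.47 and 1.37 CPM in MI4OE, and its log2 difference was 0.29 (95% confidence interval -0.49 to 1.08).

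Altogether 27 of the 34 genes tested did not meet the criterion. Their log2 differences ran from -0.72 to 0.34 and their unadjusted p from 0.124 to 0.995, and the groups overlapped in each. The 18 genes that the rule for naming left aside gave 15 tested values, from -0.60 to 0.21, with 9 above and 6 below 0.

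Some markers of cell types met the criterion too, lower in MI4OE for white adipocytes and higher for endothelium, fibroblasts and slow fibres. Of 10 white adipocyte genes tested, 10 were lower in MI4OE, and 9 were lower at the criterion, where 2.28% of all genes were. Their summed level still overlapped, at 210, 422 and 1089 CPM in the MI4KO libraries and 292, 161 and 135 CPM in MI4OE. Fabp4, which endothelium expresses too, made up 260 CPM in MI4OE replicate 1. Adipoq, the adiponectin gene, was at 9.58, 17.7 and 81.4 CPM in the MI4KO libraries and at 0.886, 5.94 and 1.37 CPM in MI4OE. Slc1a3, Slc1a5, Slc7a10 and Slc6a13 had their highest value in MI4KO replicate 3, as Adipoq did. In a bulk sample, fewer cells of a type and less RNA per cell cannot be told apart.

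The ratio of Slc7a10 to Adipoq, in TPM, was 0.0703, 0.0390 and 0.0528 in MI4KO and 0.0342, 0.0664 and 0 in MI4OE. Over the 5 libraries where Slc7a10 was detected the ratio ranged from 0.0342 to 0.0703, of which the lowest rests on 1.09 counts. The ratio of Slc1a5 to Adipoq was 0.614, 0.568 and 0.352 in MI4KO and 4.90, 0.783 and 3.20 in MI4OE. Over the 6 libraries the ratio of Slc1a3 ran from 0.0161 to 0.112, that of Slc6a13 from 0.0145 to 0.368 and that of Slc36a2 from 0.0242 to 0.234. Slc1a5 was at 10.3 to 11.0 CPM in MI4OE while Adipoq was between 0.886 and 5.94 CPM. Brown adipocyte genes, 5 in the list of which 3 did not pass the filter for testing, summed to 100.2 CPM in MI4KO replicate 2. Ucp1 was at 71.0 CPM there, and Slc36a2 had its highest value. MI4OE replicate 1 followed with a sum of 11.4 CPM, the highest Dio2 and the lowest Slc36a2. Outside MI4KO replicate 2, Ucp1 was at or below 0.148 CPM, near the level of 3 counts. Slc36a2 was still at 4.10 CPM in MI4KO replicate 3. The part of adipocyte RNA in these differences was not tested.

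MI4OE replicate 1, with the most slow-fibre RNA, had the lowest Slc38a4, Slc7a2, Slc7a8 and Slc3a2 and the highest Slc43a2, Slc38a3 and Slc38a10. Myh7, which encodes slow myosin, reached 1603 CPM there, 162 CPM in MI4OE replicate 3, 20.5 CPM in MI4KO replicate 2 and 0.205 to 1.04 CPM in the other libraries. In MI4OE replicates 2, 3 and 1, Myh7 was at 0.280, 162 and 1603 CPM, Slc38a4 at 90.1, 62.8 and 32.9 CPM and Slc43a2 at 11.0, 13.9 and 25.4 CPM. In MI4KO replicates 1, 3 and 2, Myh7 was at 0.205, 1.04 and 20.5 CPM. Slc38a4 was there at 116, 103 and 109 CPM, in no such order, and Slc43a2 at 5.49, 9.07 and 10.6 CPM. These orders hold 3 libraries each and were not tested. Of all genes, 4.36% met the criterion higher in MI4OE. Of 8 endothelial genes 4 did, and the 8 summed to 349 CPM in MI4OE replicate 1 and to between 103 and 214 CPM elsewhere. Fibroblast genes were higher in MI4OE at the criterion for 6 of 6, summing to between 358 and 484 CPM against 204 to 309 CPM. Of 8 slow-fibre genes, 7 met it, all higher. Of 6 Schwann cell genes 0 met it, though all 6 were positive with a median log2 difference of 1.201 and overlapping sums of 24.5, 107 and 16.6 CPM in MI4KO against 78.9, 204 and 65.8 CPM in MI4OE. Of 7 macrophage genes 0 met it, where 6.64% of all genes met it in either direction. What these markers contribute to the transporter values was not tested.

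**Figure D4:**
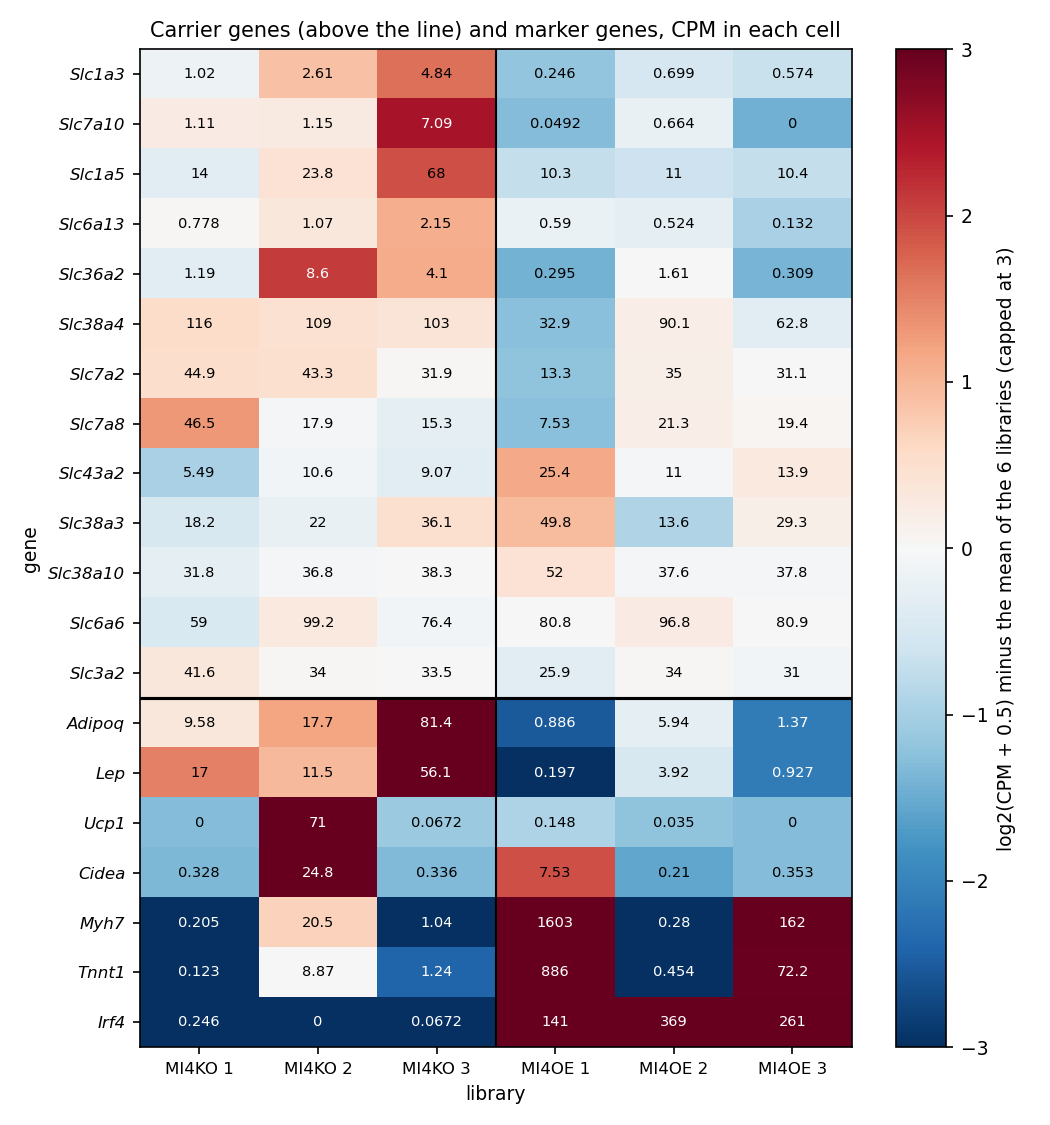
CPM, printed in each cell, of 13 transporter genes and of marker genes below the line (rows) in the 6 libraries (columns), coloured by log2(CPM + 0.5) minus the mean of the row, capped at 3. Slc7a10 and Slc1a5 are highest where Adipoq is, Slc36a2 is highest where Ucp1 is, and Slc38a4 is lowest where Myh7 is highest.

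How far each difference rested on a single library was read from fits without each of the 6 in turn, which are among the 14 alternatives. Slc1a3 and Slc1a5 met the criterion in each of 14 alternative fits, Slc7a10 in 13, Slc36a2 in 12, Slc43a2 in 11 and Slc38a4 in 7. Slc6a13 met it in 11 of the 13 fits that tested it. Among genes that did not meet the criterion, the log2 difference ran over the 6 fits without 1 library from 0.03 to 0.50 for Slc43a1, from 0.08 to 0.33 for Slc38a10, from 0.07 to 0.60 for Slc38a6 and from 0.04 to 0.47 for Slc36a1os. The lowest value came without MI4OE replicate 2 for Slc43a1 and without MI4OE replicate 1 for the other 3. Without MI4KO replicate 3, the library with the most Adipoq, 3 of 35 genes met the criterion, namely Slc1a5, Slc36a2 and Slc1a3, all lower, where 7.56% of all genes met it and 2.22% were lower. Without MI4OE replicate 3, 4 of 35 did, 1 higher and 3 lower, where 5.20% of all genes did and 1.81% were lower. Without MI4OE replicate 1, the 5 genes that met it were all lower in MI4OE, where 4.56% of all genes met it and 2.20% were lower.

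**Figure D5:**
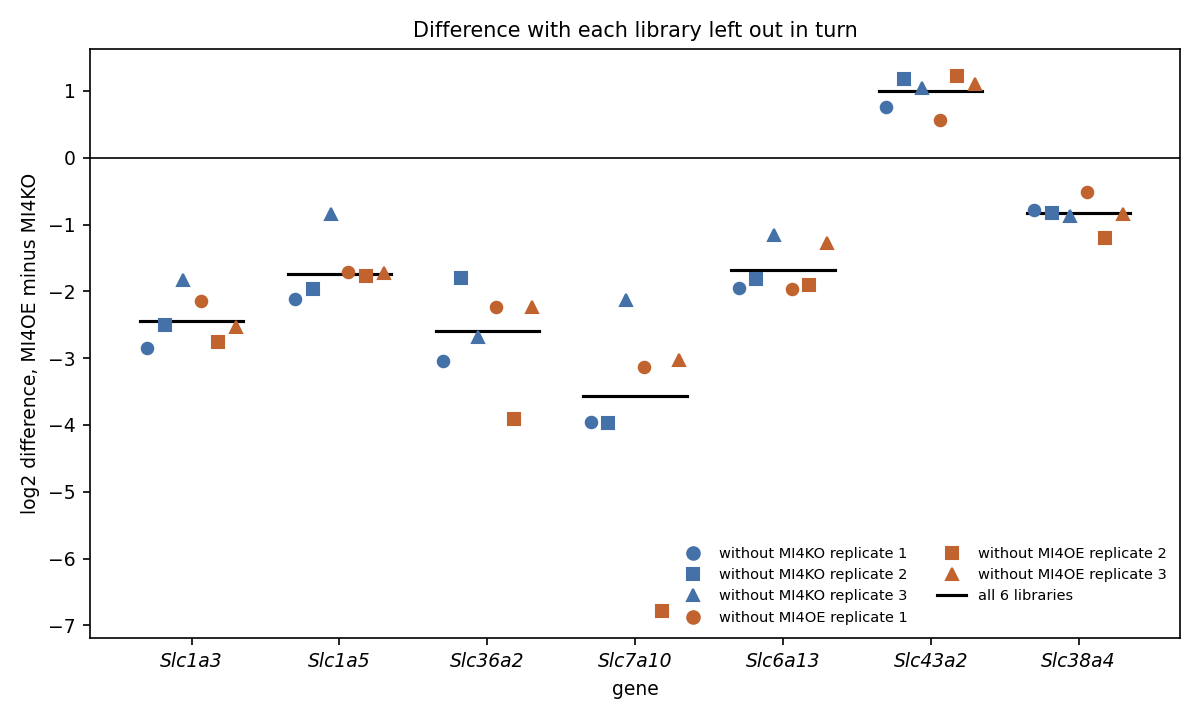
Log2 difference (y axis) of the 7 genes that met the criterion (x axis), with all 6 libraries (black line) and with 1 library left out (points, coloured by the group of the library left out). Each point keeps the sign of its gene, and Slc1a5 moves from -1.74 to -0.85 without MI4KO replicate 3.

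Carriers that the family rule leaves out and genes that respond to amino acids were read beside the members. Among the further amino acid carriers, Sfxn1 was lower at the criterion. It encodes a mitochondrial serine carrier and had a log2 difference of -1.22 with a standard error of 0.46. Slc25a12, the mitochondrial aspartate and glutamate carrier and the most abundant of them, was at 351.0 ± 10.5 CPM (SD, n = 3) in MI4KO and at 349.5 ± 18.0 CPM (SD, n = 3) in MI4OE. Of 26 genes of amino acid sensing by mTORC1, 0 met the criterion, where 6.64% of all genes did. An unadjusted p under 0.05 in the quasi-likelihood test of edgeR was reached by 0 of the 26, against 7.58% of all genes.

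Among 26 tested targets of ATF4, the factor that raises amino acid carriers when amino acids run short, 2 were higher and 3 lower at the criterion (19.2%, against 6.64% of all genes), and none had an adjusted p under 0.05, the lowest being 0.216 in the edgeR fit. Atf5 differed by 1.15 and Mthfd2, a mitochondrial folate enzyme, by 0.64 on the log2 scale. Ddit4, an inhibitor of mTORC1, differed by -3.06, Phgdh, the first enzyme of serine synthesis, by -2.11 and Vldlr, a lipoprotein receptor, by -1.69. Atf5 overlapped between the groups, at 55.9, 45.7 and 74.3 against 216, 59.5 and 115 CPM, with its highest value in MI4OE replicate 1. Phgdh reached 16.5 CPM in MI4KO replicate 3, and the other libraries held 1.28 to 3.17 CPM. Asns, the asparagine synthetase that follows ATF4 closely, differed by -0.13 (95% confidence interval -1.06 to 0.80) and Atf4 itself by -0.09 (95% confidence interval -0.58 to 0.41). The median of the 26 was -0.03.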

How the data were processed

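Gastrocnemius RNA was made into stranded mRNA libraries which, per the labels and the methods, were mapped by the authors with Bowtie2 2.1.0 and quantified with RSEM 1.2.15 after bcl2fastq 2.17. The build was not given in the sources used here. The authors deposited expected counts, which RSEM estimated for each gene without normalization. RSEM shares a read among the transcripts it matches. The TPM values deposited by the authors are length-adjusted, and the deposited percent of a gene's abundance per transcript is RSEM's. A deposited table of fold changes with p-values from the authors' comparison was not used.

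Expected counts were rounded to whole numbers for edgeR 4.0.16 (R 4.3.3). filterByExpr, at a minimum count of 10 and a minimum total of 15, left 12660 of 24054 genes. CPM was computed with TMM-scaled library sizes. Differences, MI4OE minus MI4KO with 3 libraries each, were tested by the quasi-likelihood test with Benjamini-Hochberg adjustment over the genes tested. The study's criterion, 1.5-fold and an unadjusted p under 0.05, was read from that fit. Alternatives were DESeq2 1.42.0, edgeR's exact test, RLE factors, total counts, no filter, a minimum mean CPM of 1, limma 3.58.1 on log2(TPM + 1) and log2(TPM + 0.1), and fits without each library. Tests were checked on simulated counts. The transporter genes and lists were chosen with earlier results of these data known. Values were given per library for BCAA carriers, genes at the criterion, the 8 highest by mean TPM and the 5 largest differences in each direction. Promoters came from RefSeq on GRCm38.p6. Some carriers of these lists are not reported here.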

Additional observations from a re-analysis of the deposited data

How the results depend on the processing

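Transporter genes that met the study's criterion numbered 6 or 7 in the 8 alternative fits that kept every library, against 7 in the reported one, and from 3 to 7 in the fits without 1 library. It stayed at 7 without the members that carry no amino acid and without the opposite-strand genes, the latter chosen after the data were seen. The number at an adjusted p under 0.05, 0 in the reported test and in the fits without 1 library, was 1 under DESeq2 and 1 under the exact test of edgeR. That gene was Slc1a3, at -2.47 and -2.46. These tests also called 111 and 108 of all genes, against 3. Without 1 library, the median log2 difference of the transporter genes ran from -0.15 to 0.03, that of the BCAA carriers from -0.15 to 0.23 and Irf4 from 10.69 to 12.61. Total-count scaling moved the median of all genes to 0.09 and that of the transporter genes to 0.11. Signs turned for Slc6a6 (-0.034 without MI4KO replicate 1, range up to 0.34), Slc38a3 (-0.25 without MI4OE replicate 1, range up to 0.63), Slc25a44 (0.022 with total counts, 0.042 without MI4KO replicate 2, 0.078 without MI4OE replicate 1, range from -0.20) and Slc7a5 (-0.15 without MI4KO replicate 2, -0.011 without MI4KO replicate 3, -0.23 without MI4OE replicate 3, range up to 0.56). The cause was not tested. Depth limits the genes under about 1 CPM most. No paired analysis was possible because the labels give no numbers shared between the groups.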
